A study of Zea mays with 11 samples.

Results

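Starch branching and debranching enzymes were followed as transcripts across kernel and endosperm development of maize. The group holds 6 of the 34145 genes in the table, chosen by identifier. The branching enzymes are ae1 (GRMZM2G032628) and sbe1 (GRMZM2G088753), and the debranching enzymes are su1 (GRMZM2G138060), iso2 (GRMZM2G090905), iso3 (GRMZM2G150796) and zpu1 (GRMZM2G158043). All 6 were found, and each carried an Arabidopsis match to a branching enzyme, an isoamylase-type enzyme or a limit dextrinase in the deposited annotation.

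Starch is laid down in amyloplasts of the endosperm, the storage tissue of the grain. Starch synthases lengthen linear glucan chains, and branching enzymes cut such chains and rejoin the pieces as side branches, which gives amylopectin. Debranching enzymes hydrolyse branch points. The isoamylase type is thought to trim misplaced branches so that amylopectin can crystallise, and the pullulanase type prefers short branches. Mutants of ae1 (amylose extender), which encodes branching enzyme IIb, make high-amylose grain, and mutants of su1 (sugary1), which encodes an isoamylase, give the classic sweet corn kernel with soluble phytoglycogen.

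The plants were of the inbred line Mo17, grown in a field and selfed, with no treatment. Whole kernels were taken at 3 and 5 days after pollination (DAP), dissected endosperm at 8 stages from 7 to 25 DAP (7, 9, 10 and 11, then 13, 15, 20 and 25), and the leaf subtending the ear at 13 DAP. Each of the 11 tissue and stage combinations had 1 poly(A) RNA library, so the spread between plants of a stage is unknown. Values are FPKM, fragments mapped to a transcript divided by its length and by the depth of the library, which allow levels of different genes to be compared per length.

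The sequencing depth of the libraries is unknown, and their FPKM summed to between 273651 and 300271. Tissue labels were checked against marker genes. The summed FPKM of 4 zein genes was 0.19 in leaf and between 53.8 and 36068 in endosperm, and that of 3 leaf genes was 1218 in leaf and at most 2.23 in endosperm. Markers of the embryo and of specialised cell types of the endosperm itself were present in the endosperm libraries. The 3 matched embryo genes summed to between 23.6 and 138.1 there and to at most 0.94 in whole kernels, although the embryo regulator lec1 did not exceed 0.46 in any library. All 4 transfer cell genes ranged from 38.6 to 1018 in sum, the 3 genes of the embryo-surrounding region from 0.33 to 184.6, and both aleurone genes from 13.3 to 140.2. In leaf these 3 sums were 0.09, 0 and 17.6, so the aleurone sum in leaf exceeded the lowest one in endosperm. The part of embryo and specialised endosperm cells in the values below was not tested. In such bulk tissue, fewer cells of a type and less RNA per cell cannot be told apart. Of all summed FPKM the top 10 genes took 4.54% at 7 DAP and 27.1% at 25 DAP. Ranks and ratios within a library, given below beside the levels, do not depend on that scaling.

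The gene ae1 was the most abundant member of the group from 3 to 25 DAP. Its level was 14.1 FPKM in the 3 DAP kernel and 17.4 in the 5 DAP kernel. In endosperm it was 56.6 FPKM at 7 DAP, 220.0 at 9 DAP, 444 at 10 DAP, 592 at 11 DAP, 978 at 13 DAP, 747 at 15 DAP, 510 at 20 DAP and finally 409 at 25 DAP. Each library up to 13 DAP was higher than the one before it, and each later one was lower. Among all genes of a library ae1 ranked 4904th from the top in the 3 DAP kernel, 929th at 7 DAP, 152nd at 9 DAP and by then 28th at 13 DAP. It was still the 45th highest gene at 25 DAP, so the drop in FPKM after 13 DAP moved its rank by few places.

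The gene sbe1, which encodes branching enzyme I, stood close to ae1 in young kernels and below it in endosperm. It measured 13.4 FPKM in the 3 DAP kernel, 15.4 at 5 DAP, 18.7 at 7 DAP, 44.9 at 9 DAP, 84.2 at 10 DAP, 144.8 at 11 DAP, 181.3 at 13 DAP, 136.4 at 15 DAP, 137.3 at 20 DAP and finally 122.6 at 25 DAP. From kernel to early endosperm the sbe1 values were close, while ae1 stood at 3.03 times the sbe1 level by 7 DAP. After its highest value at 13 DAP, sbe1 held 67.6% of that value at 25 DAP and ae1 held 41.8%.

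**Figure D1:**
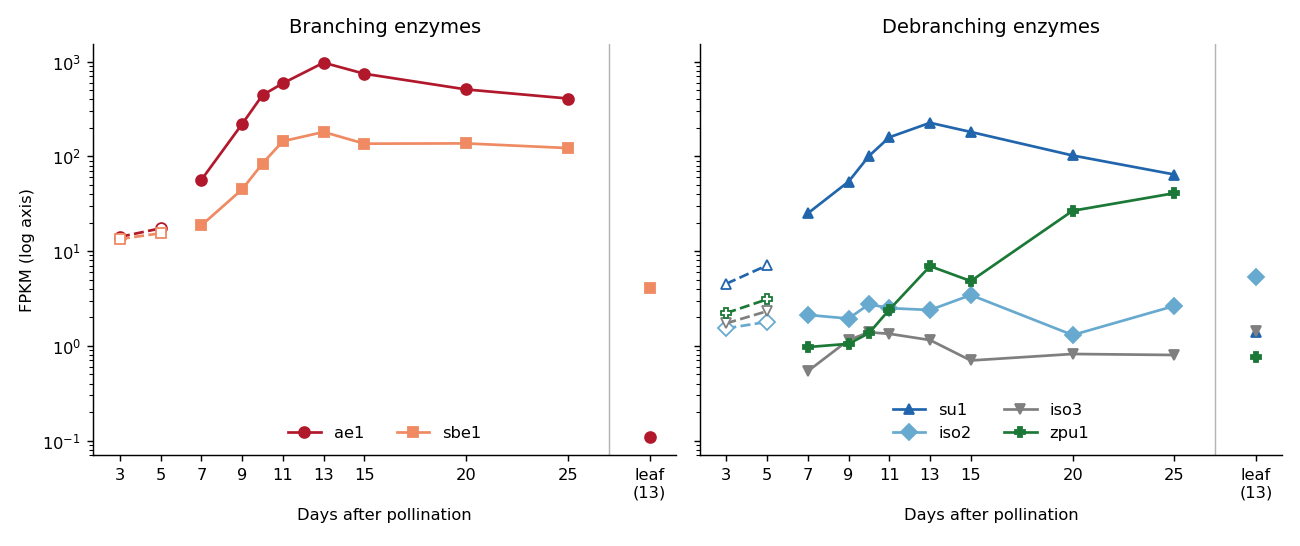
FPKM on a log axis against days after pollination for branching enzyme genes (left) and debranching enzyme genes (right), 1 library per point. Open symbols with dashed lines are whole kernels, filled symbols with solid lines are endosperm, and the points right of the grey line are the 13 DAP leaf. The levels of ae1, sbe1 and su1 peak at 13 DAP, at 978, 181.3 and 226.6 FPKM, while zpu1 is highest at 25 DAP and iso2 and iso3 stay below 4 FPKM in seed tissue.

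The isoamylase gene su1 was also highest at 13 DAP. Its level was 4.53 FPKM in the 3 DAP kernel, 7.08 at 5 DAP, 25.1 at 7 DAP, 54.2 at 9 DAP, 101.0 at 10 DAP, 159.4 at 11 DAP, 226.6 at 13 DAP, 181.4 at 15 DAP, 102.4 at 20 DAP and finally 64.4 at 25 DAP. Of the 3 genes with a peak at 13 DAP it had the smallest part of its peak value left at 25 DAP, 28.4%. Over the 10 kernel and endosperm libraries the order of its levels was identical to that of ae1 (Spearman's rho 1, Pearson's r of log2(FPKM + 1) 0.988, n = 10 libraries that also share tissue and scaling).

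The pullulanase-type gene zpu1 had another course. It measured 2.22 FPKM in the 3 DAP kernel and 3.1 at 5 DAP, then 0.97 at 7 DAP, 1.05 at 9 DAP, 1.36 at 10 DAP, 2.41 at 11 DAP, 6.94 at 13 DAP, 4.83 at 15 DAP, 26.7 at 20 DAP and finally 41.0 at 25 DAP. Its lowest seed value was thus in the youngest endosperm, where ae1 and su1 had already left their kernel levels. The log2 ratio of (FPKM + 1) at 20 DAP over 15 DAP was 2.25. In that step zpu1 was the only 1 of the 6 members at least 4-fold up. The share was 0.486% of the 14809 genes with at least 1 FPKM in either library. Over the shorter step from 11 to 13 DAP the log2 ratio of zpu1 was 1.22. Between neighbouring endosperm libraries ae1 had its largest log2 ratio from 7 to 9 DAP, 1.94 as deposited and 2.16 after upper quartile scaling. From 9 to 10 DAP, a shorter step, it was 1.01 as deposited. The 7 to 9 DAP step of ae1 was below 4-fold as deposited, where 0.0677% of 16245 genes were at least 4-fold up. The share of all genes past 4-fold after upper quartile scaling was not counted. Stages are unevenly spaced, so the sizes of these steps are not rates per day. In rank zpu1 stood 15921st at 7 DAP, 5748th at 13 DAP, 1344th at 20 DAP and finally 867th at 25 DAP.

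The remaining isoamylase-type genes were low throughout. The product of iso2 lacks key catalytic residues and joins the SU1 protein in a heteromeric complex, and ISA3, the Arabidopsis counterpart of iso3, acts in leaf starch breakdown. The iso2 transcript measured 1.53 FPKM in the 3 DAP kernel, 1.79 at 5 DAP, 2.12 at 7 DAP, 1.94 at 9 DAP, 2.75 at 10 DAP, 2.5 at 11 DAP, 2.39 at 13 DAP, 3.44 at 15 DAP, 1.3 at 20 DAP and finally 2.64 at 25 DAP. The levels of iso2 went up and down between neighbouring stages with no common direction. The iso3 transcript measured 1.73 FPKM in the 3 DAP kernel, 2.32 at 5 DAP, 0.54 at 7 DAP, 1.15 at 9 DAP, 1.39 at 10 DAP, 1.34 at 11 DAP, 1.15 at 13 DAP, 0.7 at 15 DAP, 0.82 at 20 DAP and finally 0.8 at 25 DAP. Both kernel values of iso3 were above all 8 endosperm values, though after quantile normalization its highest stage was 25 DAP. At these levels, and with unknown depth, differences between single stages cannot be separated from counting error.

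With a threshold of 10 FPKM, ae1 and sbe1 were already past it in the 3 DAP kernel, su1 passed it in the 7 DAP endosperm and zpu1 at 20 DAP, whereas iso2 and iso3 did not reach it in any library. The order of onset depended on the threshold for some genes. With 5 FPKM su1 passed at 5 DAP and zpu1 at 13 DAP, and with 20 FPKM ae1 passed at 7 DAP and sbe1 at 9 DAP. With a threshold of 50% of the own highest value, ae1, sbe1 and su1 all passed at 11 DAP and zpu1 at 20 DAP. The move from whole kernel at 5 DAP to endosperm at 7 DAP changes tissue and day together, and these cannot be told apart. Across it the log2 ratio of (FPKM + 1) was 1.65 for ae1, 1.69 for su1, 0.26 for sbe1, 0.16 for iso2, -1.06 for zpu1 and -1.11 for iso3, against a median of -0.41 over all genes with at least 1 FPKM in either library. As deposited 0 of 6 members and 2.64% of 19729 genes were at least 4-fold up. After upper quartile scaling that median was 0.01, and ae1 and su1 then passed 4-fold, at 2.15 and 2.14. The share of all genes past 4-fold under that scaling was not counted, so these 2 have no background beside them.

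From 7 to 13 DAP, 4 of the 6 members (ae1, sbe1, su1 and zpu1) were at least 4-fold up, against 2.13% of 16774 genes. The log2 ratios were 4.09, 3.21, 3.13 and 2.01, and those of iso2 and iso3 were 0.12 and 0.48. From 13 to 25 DAP zpu1 was again at least 4-fold up (2.40), as were 0.857% of 14710 genes. Over the same interval su1 had a log2 ratio of -1.80, ae1 of -1.25, sbe1 of -0.56, iso3 of -0.26 and iso2 of 0.10. None of these was a 4-fold drop, which 3.43% of genes showed. These ratios compare single libraries and have no test.

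The change over endosperm stages was tested across all genes with limma as the slope of log2(FPKM + 1) per day over the 8 endosperm libraries. Of the 6 members, 5 reached the average of 1 FPKM needed for the test; iso3, with a mean of 0.986, did not. The gene zpu1 rose (slope 0.274 ± 0.024 SE per day, limma adjusted p = 0.00062), and the other 4 tested members were not called, so 1 of 5 rose, where 10.3% of the 15149 tested genes rose. No member fell by this test, against 37.4% of all genes. These shares depend on the scaling, since after upper quartile scaling 20.9% of all genes rose and 22.6% fell. The smallest adjusted p among members with no call was 0.11, for sbe1, and the unadjusted p was 0.066, so 0 of these 4 passed at an unadjusted p of 0.05.

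For members with a maximum in the middle of the series the slope says little. The slopes were 0.0915 ± 0.0651 SE for ae1 (adjusted p = 0.27), 0.104 ± 0.05 SE for sbe1 (adjusted p = 0.11), 0.0341 ± 0.0567 SE for su1 (adjusted p = 0.65) and -0.00289 ± 0.019 SE for iso2 (adjusted p = 0.91), all by limma. Over all 15149 genes the median slope was -0.034 as deposited and -0.0023 after upper quartile scaling. Under that scaling the sbe1 slope was 0.144 and passed (adjusted p = 0.045). Without the 20 and 25 DAP libraries ae1, sbe1, su1 and zpu1 all rose, with slopes of 0.461, 0.370, 0.374 and 0.262 and adjusted p-values of 0.014, 0.017, 0.011 and 0.013, and 9.79% of all tested genes rose there. The su1 slope was negative (-0.0273) without the 7 DAP library.

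A limma F-test with day and its square as terms, which also detects a rise followed by a fall, called 4 of the 5 tested members. The adjusted p was 0.0067 for ae1, 0.0054 for sbe1, 0.0056 for su1, 0.00047 for zpu1 and 0.96 for iso2. The same test called 54.4% of all tested genes, so a call is common in this series. The day-squared term was negative for ae1 (-0.0324), sbe1 (-0.0243) and su1 (-0.0295), as for a curve that bends down, and near 0 for zpu1 (-0.00255). The calls of ae1 and sbe1 ended without the 7 DAP library (adjusted p = 0.11 and 0.085), and that of zpu1 ended without the 20 and 25 DAP libraries (0.065).

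**Figure D2:**
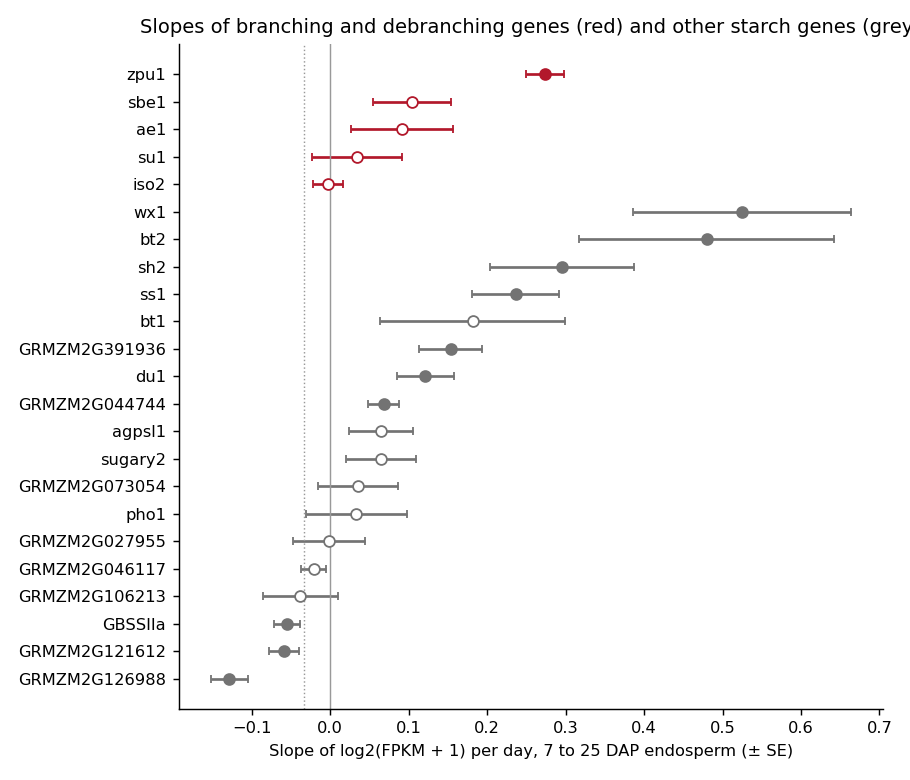
Slope of log2(FPKM + 1) per day over the 8 endosperm libraries with its SE, for the 5 tested branching and debranching genes (red) and the 18 tested other genes of the starch pathway (grey). Filled points passed an adjusted p of 0.05, the solid line marks 0 and the dotted line the median of all tested genes (-0.034). Among the red points zpu1 alone is filled, at 0.274.

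The members were then compared with each other, since a call in one gene and none in another does not show that they differ. For each of the 15 pairs of members the difference in log2(FPKM + 1) was regressed on day over the 8 endosperm libraries, with a two-sided exact permutation test of the days and Benjamini-Hochberg adjustment over the 15 pairs. The slope of zpu1 was steeper than those of iso2 and iso3. The difference was -0.277 per day for iso2 minus zpu1 (exact permutation adjusted p = 0.012) and -0.283 for iso3 minus zpu1 (exact permutation adjusted p = 0.0097). The differences of su1 minus zpu1 (-0.240), ae1 minus zpu1 (-0.182) and sbe1 minus zpu1 (-0.170) did not pass (exact permutation adjusted p = 0.07, 0.12 and 0.085). All 3 passed without the 7 DAP library (exact permutation adjusted p = 0.026 for each), and those of su1 and sbe1 with a pseudocount of 0.1 (0.035 and 0.037). They had the opposite sign without the 20 and 25 DAP libraries, where they were 0.112, 0.199 and 0.108 per day. The calls against iso2 and iso3 also ended there (exact permutation adjusted p = 0.13 and 0.11).

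The slope of su1 was shallower than that of ae1 by 0.0574 and than that of sbe1 by 0.07 per day (exact permutation adjusted p = 0.047 for each). With a pseudocount of 5 in place of 1 neither passed (adjusted p = 0.066 and 0.063). The ae1 and su1 call ended without any of the 9, 11, 13, 15, 20 or 25 DAP libraries (adjusted p = 0.052 to 0.26). The sbe1 and su1 call ended without any of the 9, 10, 11, 13, 20 or 25 DAP libraries (adjusted p = 0.051 to 0.26), and its difference was -0.0041 without 20 and 25 DAP together. The difference of ae1 minus sbe1 was -0.0126 per day and was not called (exact permutation adjusted p = 0.64). In all, 4 of the 15 pairs passed.

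Within the branching class, ae1 and sbe1 were near parity in kernels, and ae1 was the larger part in endosperm. The ae1 transcript made up 51.3% of the summed ae1 and sbe1 FPKM in the 3 DAP kernel, 53.0% at 5 DAP, 75.2% at 7 DAP, 83.0% at 9 DAP, 84.1% at 10 DAP, 80.4% at 11 DAP, 84.4% at 13 DAP, 84.6% at 15 DAP, 78.8% at 20 DAP and finally 76.9% at 25 DAP. Endosperm shares were all above the kernel shares and lay between 75.2% and 84.6%, lowest at 7 and 25 DAP. The ratio of ae1 to sbe1 was 3.03 at 7 DAP, 5.47 at 15 DAP and 3.34 at 25 DAP. In leaf ae1 was 2.61% of the sum, the only library where sbe1 exceeded it.

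**Figure D3:**
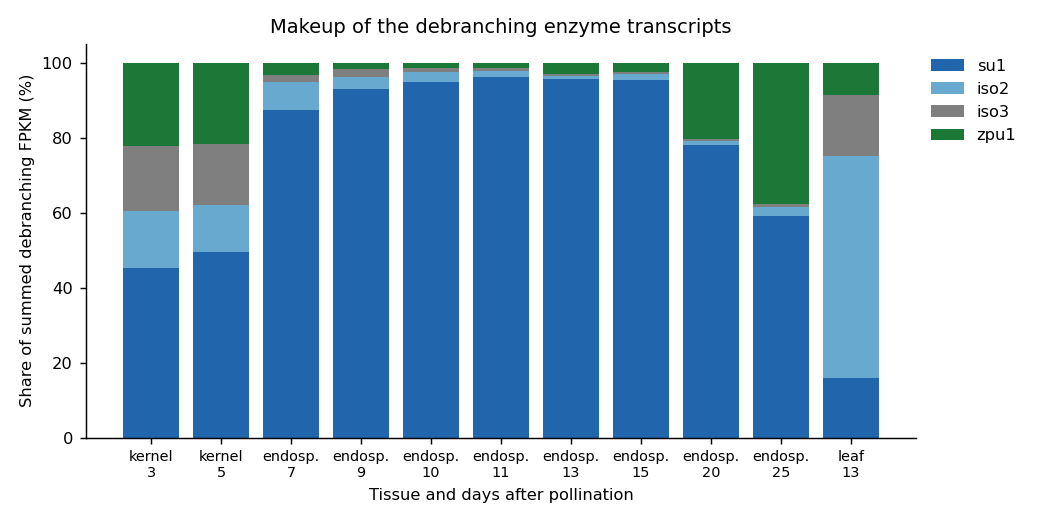
Share of each gene in the summed FPKM of the debranching enzyme genes, 1 stacked bar per library, ordered by tissue and days after pollination. The su1 share is above 87% from 7 to 15 DAP and 59.2% at 25 DAP, where zpu1 makes up 37.6%, while iso2 is the largest part in leaf (59.4%).

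Within the debranching class su1 dominated early and middle endosperm, and zpu1 took a growing share later. The su1 share of the summed debranching FPKM was 45.3% in the 3 DAP kernel, 49.5% at 5 DAP, 87.4% at 7 DAP, 92.9% at 9 DAP, 94.8% at 10 DAP, 96.2% at 11 DAP, 95.6% at 13 DAP, 95.3% at 15 DAP, 78.0% at 20 DAP and finally 59.2% at 25 DAP. The zpu1 share was 22.2% in the 3 DAP kernel, 1.28% at 10 DAP, 2.54% at 15 DAP, 20.3% at 20 DAP and finally 37.6% at 25 DAP. The ratio of su1 to zpu1 FPKM was 74.3 at 10 DAP, 37.6 at 15 DAP, 3.84 at 20 DAP and finally 1.57 at 25 DAP. The catalytic su1 and its partner iso2 were nearest in level in the 3 DAP kernel, at a ratio of 2.96, and farthest apart at 13 DAP, at 94.8. In leaf this ratio was inverted, at 0.266.

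The sum of branching transcripts was between 4.45 and 4.96 times the sum of debranching transcripts in each of the 7 endosperm libraries from 9 to 25 DAP, although the branching sum varied between 265.0 and 1159 FPKM and the debranching sum between 58.4 and 237.1. It was 2.76 times in the 3 DAP kernel, 2.30 at 5 DAP, 2.63 at 7 DAP and 0.475 in leaf. These sums hold the 6 members only. With the 7 other genes matched to the same enzymes added, an alternative chosen after seeing the data, the ratio was 3.09 in leaf, 4.11 in the 3 DAP kernel, 3.16 at 5 DAP, 2.67 at 7 DAP and between 4.53 and 5.06 from 9 to 25 DAP, so the low leaf ratio held for the 6 members alone. At 20 and 25 DAP the debranching sum held less su1 and more zpu1 than at 15 DAP. The ratio of ae1 to su1 alone went from 4.12 at 15 DAP to 6.35 at 25 DAP.

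In leaf all 6 members were below 6 FPKM, and iso2 was the highest of them. The ear leaf at 13 DAP held 0.11 FPKM of ae1, 4.1 of sbe1, 1.4 of su1, 5.27 of iso2, 1.44 of iso3 and 0.76 of zpu1. Set against endosperm of the same day, 4 of the 6 members were at least 4-fold lower in leaf, as were 6.62% of 18994 genes. The log2 ratios of (FPKM + 1) were -9.78 for ae1, -6.57 for su1, -5.16 for sbe1 and -2.17 for zpu1. Those of iso2 and iso3 were 0.89 and 0.18, against a median of all genes of 0.33, and iso3 turned to -0.20 after upper quartile scaling, where the median was -0.21. The zpu1 ratio was within 4-fold (-1.73) against the 15 DAP endosperm. All 8 endosperm values of ae1, sbe1, su1 and zpu1 exceeded the leaf value, and none of the 8 did for iso2 or iso3. With 1 leaf library these differences have no test.

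Levels of other genes with a match to the same enzymes were listed, since members could share reads with them. Sharing of reads itself was not tested. The starch branching enzyme 2.2 match GRMZM2G073054, for which the gene table gave no symbol, was the highest branching transcript in leaf, at 21.9 FPKM. It measured 13.6 FPKM in the 3 DAP kernel, 11.8 at 5 DAP, 1.73 at 7 DAP, 3.85 at 9 DAP, 12.6 at 10 DAP, 13.5 at 11 DAP, 16.3 at 13 DAP, 14.8 at 15 DAP, 6.11 at 20 DAP and finally 7.62 at 25 DAP. It was close to ae1 and sbe1 in the 3 DAP kernel, lower than both at 5 DAP and far below both at 13 DAP. Its slope over endosperm stages was not called (0.0358, limma adjusted p = 0.59). The branching enzyme III gene sbe3 (GRMZM2G005298) stayed between 0.17 and 1.04 FPKM in endosperm and was 2.18 in leaf. The remaining 5 matches (GRMZM2G169073, GRMZM2G152631, GRMZM2G385578, GRMZM2G076508 and GRMZM2G099595) did not reach 1 FPKM in any library.

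The timing of the branching and isoamylase transcripts was set beside the 6 most abundant other genes of the starch pathway. At 9 DAP ae1 stood at 22.5%, sbe1 at 24.8% and su1 at 23.9% of their highest values. Only the plastidial phosphorylase gene pho1 was at a similar stage among those 6, with 28.7%. The large subunit gene of ADP-glucose pyrophosphorylase, sh2, was at 5.84%, the starch synthase gene ss1 at 5.99% and the ADP-glucose transporter gene bt1 at 2.66%. The small subunit gene bt2 and the granule-bound starch synthase gene wx1 were at 0.101% and 0.0625%, with 2.44 and 1.27 FPKM. By 10 DAP bt2 and wx1 had reached 149.3 and 140.8 FPKM, 6.21% and 6.93% of their highest values, when ae1, sbe1 and su1 were at 45.4%, 46.4% and 44.6%. The lag did not hold for the whole pathway. The next genes by endosperm mean were at least as far along at 9 DAP as ae1, sbe1 and su1. The starch synthase genes du1 and sugary2 were then at 47.85 and 20.69 FPKM, with highest values of 152.65 and 72.99. The ADP-glucose pyrophosphorylase match GRMZM2G106213 was at 31.05 FPKM, with a highest value of 76.16.

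**Figure D4:**
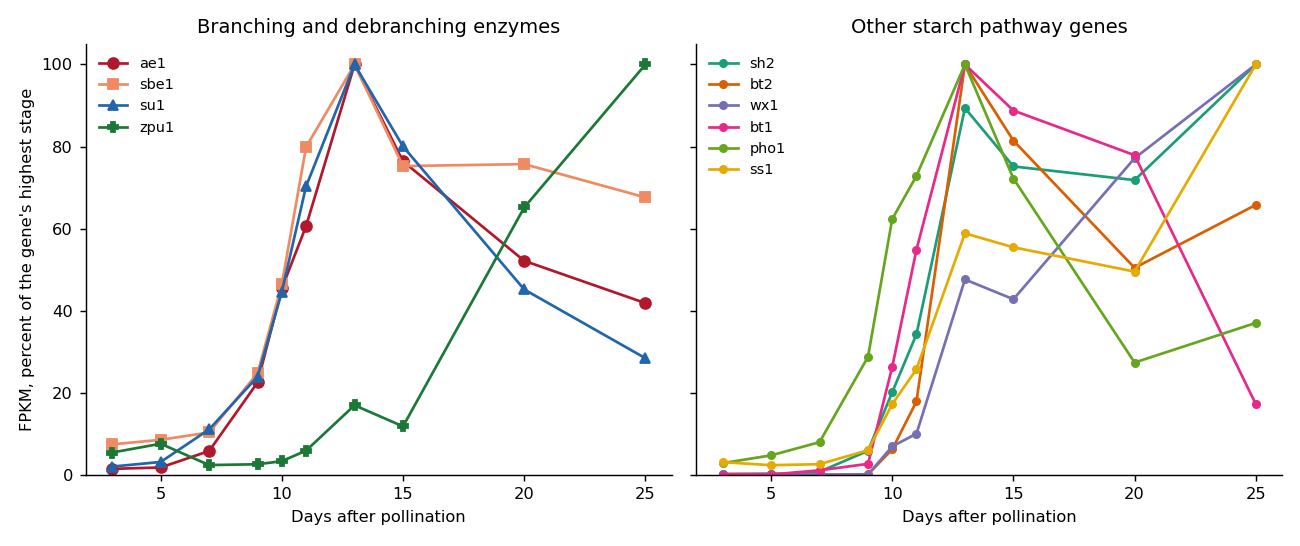
FPKM as a percentage of each gene's highest kernel or endosperm value against days after pollination, for ae1, sbe1, su1 and zpu1 (left) and the 6 most abundant other starch pathway genes (right), 1 library per point. At 9 DAP ae1, sbe1, su1 and pho1 are between 22.5% and 28.7% while sh2, bt1, bt2, wx1 and ss1 are below 6%, and at 25 DAP zpu1, sh2, wx1 and ss1 are at their highest.

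The late end of the series separated the genes again. At 25 DAP zpu1, wx1, sh2 and ss1 were at their highest value, whereas su1 had 28.4%, pho1 37.0% and bt1 17.2% of theirs. Of the 18 tested genes of the pathway outside the group, 7 had their highest endosperm value at 13 DAP and 6 at 25 DAP. Of the 5 tested members, 3 had it at 13 DAP, 1 at 15 DAP and 1 at 25 DAP. Among all tested genes 3.9% were highest at 13 DAP and 15.4% at 25 DAP.

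The pathway list, drawn up with earlier results of these data known, held 23 genes for starch synthesis besides the 6 members. Of its 18 tested genes 7 rose, 3 fell and 8 were not called by limma, with a median slope of 0.065, against a median of -0.034 over all tested genes. The genes that rose included wx1 (slope 0.525, adjusted p = 0.013), bt2 (0.480, adjusted p = 0.036), sh2 (0.296, adjusted p = 0.026) and ss1 (0.237, adjusted p = 0.0082), while pho1 (0.0329, adjusted p = 0.7) and bt1 (0.181, adjusted p = 0.23) were not called. The count of rises was 3 without the 7 DAP library and 12 without the 20 and 25 DAP libraries, and that of falls was 1 without the 20 DAP library and 0 without both late ones. Falls also numbered 1 after quantile or upper quartile scaling.

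A second list covered enzymes that degrade or rework glucans, as the deposited Arabidopsis descriptions name them. Of its 21 genes 8 were tested, 0 rose and 2 fell, where 37.4% of all tested genes fell. The median slope was -0.044, near the -0.034 of all genes. The falling genes, named after their values were seen, were the disproportionating enzyme 2 match GRMZM2G136803 (11.0 FPKM at 7 DAP, 4.65 at 13 DAP, limma adjusted p = 0.0063) and the alpha-amylase-like 2 match GRMZM2G422938 (6.93 at 7 DAP, 5.47 at 13 DAP, adjusted p = 0.031). No gene of this list averaged above 11.6 FPKM in endosperm, where su1 averaged 114.3 FPKM.

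Genes with the most similar course were ranked by Pearson's r of log2(FPKM + 1) over the 10 kernel and endosperm libraries, among the 5309 genes that averaged 10 FPKM or more there. For ae1 the closest were the pyruvate phosphate dikinase genes C4ppdkZm1 (GRMZM2G306345, r = 0.992) and CYPPDKZM2 (GRMZM2G097457, r = 0.991), near-identical relatives whose reads may be shared, and the Arabidopsis EMB1241 match GRMZM2G044684 (r = 0.991). They were followed by the prolamin-box factor gene PBF (GRMZM2G146283, r = 0.989). In leaf C4ppdkZm1 was at 968 FPKM and CYPPDKZM2 at 5.15, so the likeness to ae1 in seed did not extend to leaf for the first.

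For sbe1 the closest gene was o2 (r = 0.993), which encodes the bZIP activator of zein genes, and the closest named genes after it were the tryptophan aminotransferase gene TAR3 (r = 0.983) and PBF (r = 0.982). The gene su1 was closest to an identifier without annotation, GRMZM2G164714 (r = 0.988), to ae1 (r = 0.988), to CYPPDKZM2 (r = 0.987) and to the legumin gene leg1 (r = 0.982). For zpu1 they were the EMB2769 match GRMZM2G062076 (r = 0.983), GRMZM2G033236, which has no annotation (r = 0.974), and the CPK5 match GRMZM2G032852 (r = 0.969). The first named gene for zpu1 was pck2, for phosphoenolpyruvate carboxykinase (r = 0.940), at rank 18, followed by the alpha zein gene z1C1_12 (r = 0.918) and COAC2 (r = 0.905).

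Close company was found for some members and not for others. An r of at least 0.95 was found with 43 genes for ae1 (0.81%), 35 for sbe1 (0.66%) and 31 for su1 (0.58%). There were 9 for zpu1 (0.17%) and 0 for iso2 and iso3. Percentages are of the genes compared. How many such partners a gene commonly has was not counted. The genes compared averaged 10 FPKM or more, a level that iso2, iso3 and zpu1 did not reach. Genes as low as these 3 members were thus left out of the comparison. Whether their low level limits their r was not tested. The closest gene of iso2, the unannotated GRMZM2G051174, reached r = 0.910, and those of iso3 were the unannotated GRMZM2G324973 (r = 0.910) and the AGO1 match GRMZM2G039455 (r = 0.909). The named genes nearest iso2 were gpi (r = 0.901), HAK14 (r = 0.855) and P4H5-1 (r = 0.843), and those nearest iso3 were sbp17 (r = 0.878), AMADH1A (r = 0.870) and Tie-dyed2 (r = 0.858). These r values describe 10 libraries that share stage, tissue and scaling. The choice of measure mattered, since the 10 closest genes by Pearson's r and by Spearman's rho shared 4 genes for ae1, 0 for sbe1, 6 for su1, 3 for iso2, 5 for iso3 and 1 for zpu1.

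Among the members themselves ae1, sbe1 and su1 moved together over the 10 libraries, with r between 0.945 and 0.988. Their r with zpu1 was between 0.282 and 0.532, with iso2 between 0.480 and 0.570, and with iso3 between -0.516 and -0.417. Within the 8 endosperm libraries alone the first 3 stayed between 0.900 and 0.971, and the sign of the iso3 values turned positive, between 0.386 and 0.480.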

How the data were processed

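The authors deposited a table of FPKM values for 11 libraries, rounded to 2 decimals. Tools named by the submitters' processing notes are edgeR, TopHat2 and cutadapt, without version or purpose. Build, annotation and counter were not given in the sources used here. Whole reads could not be recovered from the rounded FPKM values, so no counting interval is given. No strand setting is recorded, and reads of close relatives may be shared.

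Members, lists and tests were chosen with earlier results of these data known, and the comparison of pairs was added after their values were seen. Names came from a RefSeq gene table's synonyms (Zm-B73-REFERENCE-NAM-5.0, names only), which matched 18367 identifiers, and from the deposited Arabidopsis descriptions. Its 2 records listing GRMZM2G088753 also list GRMZM2G088737, and 1 carries sbe1; the former is taken as sbe1 by its branching enzyme match, the latter matching LAZARUS 1. It has no row for GRMZM2G138060, called su1 in the list of members and carrying an isoamylase match to Arabidopsis. Listed names of GRMZM2G005298 and GRMZM2G073054 had been exchanged and were corrected. A sucrose synthase gene that carries the synonym ss2 was left out of the pathway list.

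Slopes and F-tests were fitted with limma 3.58.1 in R 4.3.3 (eBayes with trend) on log2(FPKM + 1) of genes averaging 1 FPKM or more in the 8 endosperm libraries, two-sided, with Benjamini-Hochberg adjustment over 15149 genes and a threshold of 0.05. They leave 6 and 5 residual degrees of freedom. Stages are not replicates, and departures from the fitted curve serve as the error. A fold on this scale understates changes of low genes. The code was checked on simulated data. Permutation tests enumerated all 40320 orders of the days. They take the stages as exchangeable, and likeness between neighbouring stages could make their p-values too small. Alternatives were pseudocounts of 0.1 and 5, no filter, quantile and upper quartile scaling, other time axes and left-out libraries. The text names the 6 members, the 3 genes most like each and the 3 most like each that have a symbol, and the 6 most abundant other pathway genes, a few unannotated identifiers excepted; other genes were named after their values were seen. Promoter and protein sequences were not analysed here.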

Additional observations from a re-analysis of the deposited data

How the results depend on the processing

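The rise of zpu1 passed under all 17 alternatives to the trend test (adjusted p between 0.00035 and 0.013). The number of members that rose, 1 as reported, was 2 (with sbe1) after quantile normalization, upper quartile scaling, on log2 of the day, on stage order and when the 100 highest genes were left out of the scaling (an alternative chosen after seeing the data, as were those for pairs of members), and 4 without the 20 and 25 DAP libraries. The share of all genes that rose, 10.3% as reported, was 21.0% after quantile normalization, 20.9% after upper quartile scaling, 21.3% under the 100-gene rescaling, 11.3% on log2 of the day, 12.0% on stage order and 9.79% without 20 and 25 DAP. The member count was 1 whichever single library was left out. The curved test called between 2 and 4 members with 1 library left out. For other pathway genes the rises ranged from 3 to 7 and the falls from 1 to 3 with 1 library left out. Without the 20 and 25 DAP libraries they numbered 12 and 0, and falls numbered 1 under quantile, upper quartile and 100-gene rescaling. Some slopes without a call changed sign. With 1 library left out the su1 slope ranged from -0.0273 to 0.139 and the iso2 slope from -0.0212 to 0.0144. The iso2 slope was 0.0302 after quantile normalization, 0.025 after upper quartile scaling and 100-gene rescaling, 0.0056 on stage order and 0.0574 without 20 and 25 DAP. Slope differences with 1 library left out ranged from -0.0361 to 0.0121 for ae1 minus sbe1, from -0.0201 to 0.160 for su1 minus iso2, from -0.00208 to 0.147 for su1 minus iso3 and from -0.0137 to 0.0223 for iso2 minus iso3. Without 20 and 25 DAP they were 0.0905 for ae1 minus sbe1, 0.199 for ae1 minus zpu1, -0.0041 for sbe1 minus su1, 0.108 for sbe1 minus zpu1 and 0.112 for su1 minus zpu1. Causes of these moves were not tested. Peaks of ae1, sbe1, su1 and zpu1 kept their day under both scalings, and those of iso2 and iso3 moved to 25 DAP after quantile normalization. Tested without the filter, iso3 had no call (slope -0.0096, adjusted p = 0.73). No paired analysis was possible because each stage has 1 library. The unknown depth limits iso2, iso3 and early zpu1 most.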
